A study of Homo sapiens with 12 samples.

Results

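The genes described here are 10 members of the NF-κB pathway, picked by symbol from the count tables of the CAL27 and HSC3 cells. They are the 5 subunit genes NFKB1, NFKB2, RELA, RELB and REL, the inhibitor genes NFKBIA and NFKBIE, and the feedback and response genes TNFAIP3, TNFAIP2 and IKBKE. Both tables listed all 10 among 39368 symbols. All 10 passed the filter on low counts in every comparison, among 19239 genes in CAL27 cells, 18021 in HSC3 cells and 20694 over the 12 libraries.

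CAL27 and HSC3 are established HPV-negative head and neck squamous cell carcinoma (HNSCC) lines. Both were transduced with a tetracycline-inducible vector carrying a MUC1 shRNA (tet-MUC1shRNA) and selected in puromycin, so that doxycycline (DOX) turns on the shRNA against MUC1, a transmembrane mucin. Of each line, 3 cultures received vehicle (0.1% DMSO) and 3 received 500 ng/ml DOX, for 7 days, and polyadenylated RNA was sequenced from all 12. CAL27 cells were grown in DMEM and HSC3 cells in MEM, and each line was counted in a table of its own, so line, medium and table cannot be told apart. The inducible vector held 1 MUC1 shRNA sequence. DOX-treated cells with a control shRNA were not analysed here, so silencing of MUC1 cannot be told apart from any other effect of DOX or of the shRNA. The p-values measure the spread between these cultures, and in bulk RNA fewer cells of a kind and less RNA per cell cannot be told apart.

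NF-κB is a family of dimeric transcription factors that inhibitors of the IκB family hold in the cytoplasm. Cytokine and pattern recognition receptors activate IκB kinases, the inhibitor is degraded and the dimer enters the nucleus, where it switches on inflammatory genes together with genes for its own inhibitors, which close a negative feedback loop. In squamous epithelium the pathway is known for its part in inflammation, survival and wound responses.

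The promoters of several members hold the sequence that NF-κB dimers bind, and they are shown because some members with it fell with DOX in CAL27 cells (REL, NFKBIA and TNFAIP3) and others did not pass there (NFKB1 and NFKB2). The consensus κB motif of 10 bases was searched on both strands in the 250 bases before each start in the RefSeq promoter table (GRCh38.p14). It was found in 3221 of 27305 genes (11.8%). Of the 8 members with an entry, 5 held a match (62.5%). No match lay in these windows of RELA, TNFAIP2 and IKBKE, which fell with DOX in CAL27 cells as well. A link between the motif and the response was not tested. Each stretch below reads 5′ to 3′ on the strand of its gene, with the matching bases in capitals. The stretches lie at chr4:102501300-102501329 on the plus strand for NFKB1, chr10:102394462-102394490 and chr10:102395674-102395703 on the plus strand for NFKB2, chr2:60881518-60881546 on the plus strand for REL, chr14:35404811-35404840 on the minus strand for NFKBIA and chr6:137867188-137867217 on the plus strand for TNFAIP3. The capitals begin 49 bases before the start in NFKB1, 107 and 21 before 2 of the starts of NFKB2, 47 in REL, 81 in NFKBIA, and 67 and 55 in TNFAIP3. In REL and the first NFKB2 stretch, overlapping matches run into each other. Further matches, not shown, began 78 and 176 bases before the starts used for the first and second NFKB2 stretch. Another start of NFKB1 and another of NFKB2 had no match.
NFKB1: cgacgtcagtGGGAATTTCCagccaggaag
NFKB2 first: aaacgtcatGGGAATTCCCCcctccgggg
NFKB2 second: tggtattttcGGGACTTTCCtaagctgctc
REL: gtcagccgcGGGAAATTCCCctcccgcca
NFKBIA: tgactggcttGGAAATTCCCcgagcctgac
TNFAIP3: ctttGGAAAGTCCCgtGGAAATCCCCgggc
The matches are matches of letters only, and binding was not measured in these data.

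Counts summed to between 92866845 and 126328662 in the CAL27 libraries and between 89730914 and 169065103 in the HSC3 libraries. Each RNA molecule stood for an estimated 2.45 to 3.33 counts in CAL27, 4.18 to 7.43 in HSC3 vehicle and 8.93 to 17.2 in HSC3 DOX libraries, so the HSC3 DOX values rest on fewer molecules than their totals imply. HSC3 DOX replicate 1 stood apart, with 17.2 counts per molecule and 19128 genes detected, the fewest of the 12. MUC1, the silenced gene, fell from 55.3 ± 2.79 to 2.98 ± 0.249 CPM (TMM-normalized counts per 1000000 counts of the library) in CAL27 and from 1.76 ± 0.186 to 0.236 ± 0.0928 in HSC3 (mean ± SD, n = 3). All 9 squamous epithelial markers checked were detected in both lines. Their summed level was 6520 to 6810 CPM with vehicle and 3180 to 3420 with DOX in CAL27, and 6450 to 7240 and 3090 to 3660 in HSC3, so it moved with DOX in both lines, and its part in the results was not tested. KRT5 made up most of the sum (mean 3700 CPM with vehicle and 1790 with DOX in CAL27, 2890 and 1440 in HSC3). Mean EPCAM went the other way (124 and 164 CPM, 55.7 and 102) and mean CDH1 stayed close (291 and 299, 171 and 169). Summed immune markers stayed at or below 5.28 CPM in every library. Summed endothelial and fibroblast markers were lower with DOX in CAL27 (14.9 to 15.3 and 8.83 to 12.2 CPM, 13.4 to 14.1 and 10.2 to 10.6 CPM), with CDH5 and COL1A1 as the largest contributors to the levels. In HSC3 the summed fibroblast markers were higher with DOX (4.2 to 5 and 5.97 to 9.34 CPM). The endothelial ones were lower there (0.268 to 0.52 and 0.135 to 0.248 CPM). The part of these markers in the results was not tested.

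In vehicle-treated cells all 10 genes were expressed. Levels per kilobase (kb) of the canonical GENCODE v44 transcript were highest for TNFAIP2 (76.4 ± 3.72 CPM per kb), NFKBIA (71.6 ± 1.69) and RELA (62.8 ± 2.04) in CAL27 cells. TNFAIP3 (18.0), NFKB1 (15), NFKB2 (10.4), REL (8.27), RELB (6.12), IKBKE (5.91) and NFKBIE (1.96) followed in CPM per kb. Neighbours in this order were separate in all 3 libraries, with 2 exceptions. The ranges of TNFAIP2 and NFKBIA overlapped, and so did those of RELB and IKBKE.

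In HSC3 vehicle cells NFKBIA led with 83.7 CPM per kb, ahead of RELA (61.3), TNFAIP3 (44.8), NFKB1 (27.0) and TNFAIP2 (17.7). NFKB2 (8.14), REL (8.07) and IKBKE (7.98) had overlapping ranges, and RELB (5.81) and NFKBIE (0.657) were lowest. The order depends on which transcript length is used, since NFKB1 stood at place 5 with the canonical transcript and at place 9 with all exons joined in CAL27 vehicle cells.

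**Figure D1:**
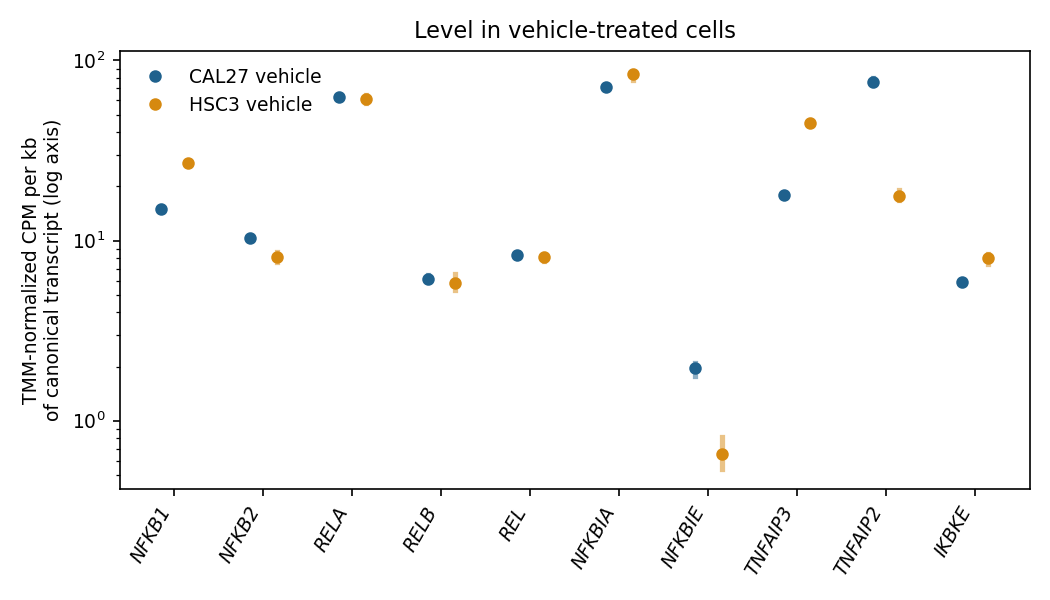
Level of each gene in vehicle-treated CAL27 (blue) and HSC3 (orange) cells, in TMM-normalized CPM per kb of the canonical transcript on a log axis; points are means of 3 libraries and bars their range. TNFAIP2 and NFKBIE sit higher in CAL27, at 76.4 and 1.96, and TNFAIP3 and NFKB1 sit higher in HSC3, at 44.8 and 27.0 CPM per kb.

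Between the vehicle groups, HSC3 cells had more RNA of NFKB1, NFKBIA, TNFAIP3 and IKBKE and less of NFKB2, NFKBIE and TNFAIP2. Of the 10 genes, 4 were higher in HSC3 at an edgeR adjusted p under 0.05, where 34.7% of all genes tested were, and 3 were lower, where 37.1% were. Each share is near that of all genes. The differences above 2-fold were those of TNFAIP2, NFKBIE and TNFAIP3, 3 of 10 genes, against 34.7% of all genes past both limits.

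TNFAIP2 encodes a TNF-inducible protein linked to membrane protrusions and lies at chr14:103121476-103137439 on the plus strand (this and all gene positions are from GENCODE v44, GRCh38). Its levels were 358, 341 and 375 CPM in CAL27 vehicle and 89.5, 80.0 and 79.4 CPM in HSC3 vehicle libraries. HSC3 cells thus held 4.31-fold less (log2 difference -2.11 ± 0.054 SE, edgeR adjusted p 2e-12). NFKBIE, the gene of IκBε (chr6:44258166-44265788, minus strand), was the least abundant member, with 4.66, 4.18 and 4.92 CPM in CAL27 and 1.46, 1.26 and 1.90 CPM in HSC3 vehicle libraries. Its level was 2.95-fold lower in HSC3 (log2 difference -1.56 ± 0.16, adjusted p 1.8e-06).

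TNFAIP3 encodes A20, a ubiquitin-editing enzyme that shuts down signalling to the IκB kinases (chr6:137867214-137883314, plus strand). It stood at 85.7, 81.1 and 85.3 CPM in CAL27 and 217, 205 and 204 CPM in HSC3 vehicle libraries, 2.49-fold higher in HSC3 (log2 difference 1.32 ± 0.042, adjusted p 1.3e-11). NFKB1, which gives the p105 precursor and the p50 subunit, was 1.80-fold higher in HSC3 (log2 difference 0.85 ± 0.042, adjusted p 9.9e-10), and IKBKE, the gene of the IκB kinase-related kinase IKKε, 1.35-fold higher (0.43 ± 0.065, adjusted p 4.8e-05). NFKB2, the gene of p100 and p52, was 1.28-fold lower (-0.36 ± 0.061, adjusted p 0.00016).

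RELA, RELB and REL did not pass between the lines, with log2 differences of -0.0329 (95% interval -0.13 to 0.0642), -0.0749 (-0.264 to 0.114) and -0.0326 (-0.126 to 0.0609). These 3 and NFKBIA depended on the scaling. When library totals replaced TMM, the median of all genes moved from -0.0959 to -0.369, RELA (-0.305), RELB (-0.348) and REL (-0.306) passed as lower in HSC3, and NFKBIA, 0.23 higher with TMM (adjusted p 0.00086), turned to -0.0455 (adjusted p 0.41). The other 6 genes kept their direction and call, but the size moved by over 1.5 times for IKBKE (0.16, adjusted p 0.041) and NFKB2 (-0.63, adjusted p 7.1e-07).

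In CAL27 cells most of these genes were lower with DOX. RNA of RELA, RELB, REL, NFKBIA, NFKBIE, TNFAIP3, TNFAIP2 and IKBKE fell, and that of NFKB1 and NFKB2 did not pass. These are 8 of 10 genes lower at an edgeR adjusted p under 0.05, where 21.8% of all genes tested were lower, and 0 of 10 higher, where 22.6% were (0 also at an unadjusted p under 0.05 and by DESeq2). The 10 genes were chosen with earlier results of these data known, so these shares describe them and are no test of the pathway. The median log2 fold change was -0.49 for the 10 genes and -0.0052 for all genes. None of the 10 changed more than 2-fold, which 6.42% of all genes did with an adjusted p under 0.05.

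**Figure D2:**
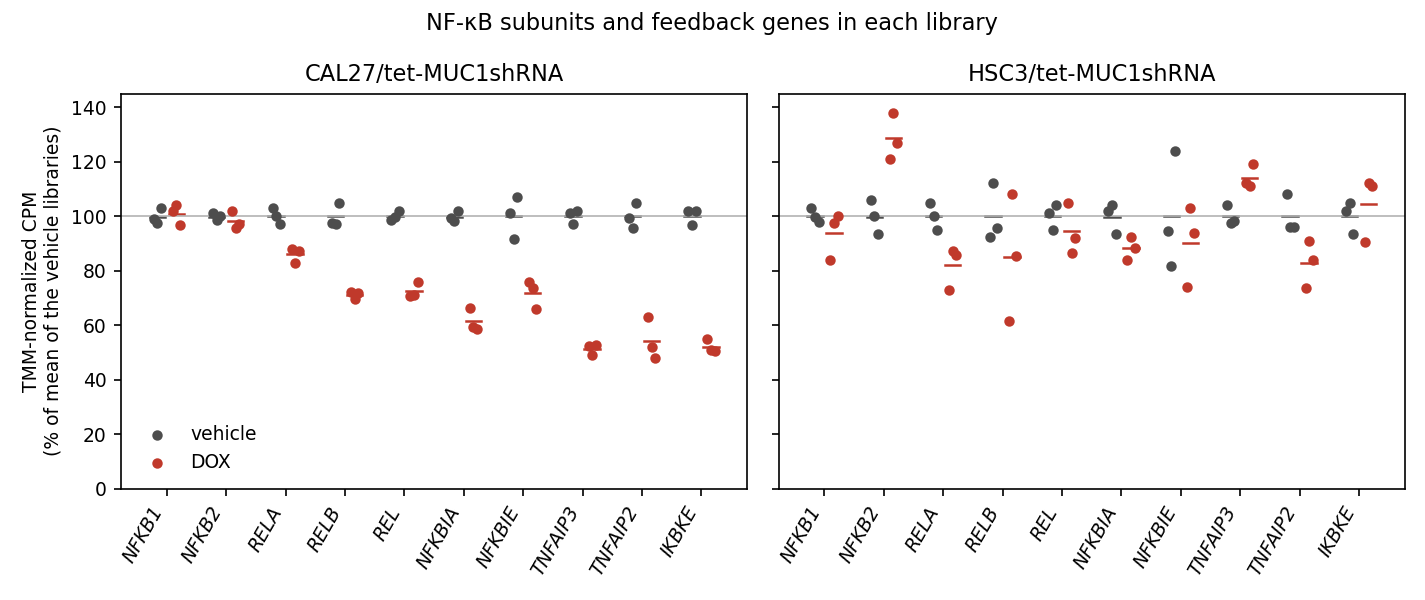
Level of each gene in each of the 12 libraries, as a percent of the mean of the 3 vehicle libraries of the same line (TMM-normalized CPM, vehicle grey, DOX red, short lines at the means of 3). In CAL27 cells the DOX points of 8 genes lie below every vehicle point. In HSC3 cells those of NFKB2 and TNFAIP3 lie above and those of RELA, NFKBIA and TNFAIP2 below. Of all genes tested, 52.4% had groups without overlap in CAL27 (5067 of 19239 lower with DOX and 5005 higher). In HSC3 42.6% did (4102 of 18021 lower and 3575 higher).

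Of the subunits in CAL27 cells, REL and RELB fell most. REL encodes c-Rel (chr2:60881491-60931612, plus strand). Its levels were 91.2, 91.0 and 93.4 CPM with vehicle and 65.8, 65.0 and 69.6 CPM with DOX, so the groups did not overlap, as for 52.4% of all genes tested. The log2 fold change was -0.46 ± 0.041 (SE, edgeR adjusted p 1.2e-08). A second annotated gene on the same strand covers 33.3% of the exon bases of REL, and how its reads were assigned is not given in the sources used here.

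RELB encodes the partner of p52 in the non-canonical pathway (chr19:45001461-45038192, plus strand). It stood at 13.6, 13.3 and 14.5 CPM with vehicle and 10.1, 9.55 and 9.91 CPM with DOX, a log2 fold change of -0.49 ± 0.067 (adjusted p 4.4e-06). RELA, the gene of p65, the main activating subunit (chr11:65653599-65663090, minus strand), stood at 164, 157 and 153 CPM with vehicle and 140, 131 and 138 CPM with DOX. Its fall was the smallest of the 8, at -0.22 ± 0.039 (adjusted p 0.00011), although the groups were separate.

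NFKB1 (chr4:102501330-102617302, plus strand) stood at 60.8, 59.0 and 62.8 CPM with vehicle and 62.9, 63.3 and 59.0 CPM with DOX in CAL27. The groups overlapped, with a log2 fold change of 0.017 (95% interval -0.0739 to 0.107, adjusted p 0.80). NFKB2 (chr10:102394110-102402524, plus strand) overlapped as well, with 32.1, 30.8 and 31.4 CPM against 32.4, 30 and 30.5 CPM and a log2 fold change of -0.025 (-0.125 to 0.075, adjusted p 0.72). Both intervals stopped short of the fall of RELA.

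Of the inhibitors, NFKBIA, which encodes IκBα, the textbook rapid feedback inhibitor (chr14:35401079-35404749, minus strand), stood at 112, 109 and 114 CPM with vehicle and 74.8, 66.0 and 65.3 CPM with DOX in CAL27. That was 1.63-fold lower (log2 fold change -0.70 ± 0.046, adjusted p 1.8e-10). NFKBIE fell from the vehicle levels given above to 3.52, 3.37 and 3.03 CPM, a log2 fold change of -0.48 ± 0.11 (adjusted p 0.00096). In 1 fit over all 12 libraries NFKBIE kept its size but not its call (-0.47, adjusted p 0.066, range over its alternatives 0.00017 to 0.066).

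The 3 feedback and response genes fell most in CAL27 cells. TNFAIP3 went from the vehicle levels above to 44.4, 41.2 and 44.3 CPM, 1.94-fold lower (log2 fold change -0.96 ± 0.043, adjusted p 5.2e-13). IKBKE (chr1:206470476-206496889, plus strand) went from 19.6, 18.4 and 19.5 CPM to 10.6, 9.70 and 9.71 CPM, 1.92-fold lower (-0.94 ± 0.064, adjusted p 2.7e-10). TNFAIP2 went to 228, 185 and 171 CPM, 1.84-fold lower (-0.88 ± 0.11, adjusted p 0.0012). Its DOX libraries spread more than those of the other members, with an SD of 29.5 CPM.

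With the canonical length, the per kb order changed with DOX in CAL27 cells. RELA led with 54.1 CPM per kb, NFKBIA (44.1) and TNFAIP2 (41.6) overlapped after it, and TNFAIP3 (9.28) came after NFKB1 (15.2) and NFKB2 (10.3). With all exons joined, TNFAIP2 led in both CAL27 groups (70.8 and 38.5 CPM per kb) and TNFAIP3 stood at place 4 in both, so these shifts depend on the length used. Genes antisense to RELA, TNFAIP3, TNFAIP2 and IKBKE cover 0.474% to 4.12% of their exon bases, and whether the counting used strand is not given in the sources used here.

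In HSC3 cells fewer of the 10 genes passed with the same treatment, and they moved in both directions. NFKB2 and TNFAIP3 rose and RELA and TNFAIP2 fell, so 2 of 10 genes were higher, where 13% of all genes tested were, and 2 of 10 lower, where 15.4% were. These shares are near those of all genes. The median log2 fold change was -0.12 for the 10 genes and -0.0097 for all genes, and none changed more than 2-fold, as 5.98% of all genes did with an adjusted p under 0.05.

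NFKB2 stood at 26.1, 24.7 and 22.9 CPM with vehicle and 30.1, 33.8 and 31.3 CPM with DOX in HSC3. The groups were separate, as for 42.6% of all genes tested, with a log2 fold change of 0.37 ± 0.091 (edgeR adjusted p 0.011). Without vehicle replicate 2 or 3 it was 0.37 (adjusted p 0.051) or 0.32 (0.06), over a range of 0.00057 to 0.06 for all its alternatives. TNFAIP3 rose from the vehicle levels above to 236, 231 and 249 CPM (0.19 ± 0.060, adjusted p 0.038). This call was lost without vehicle replicate 1 (0.22, adjusted p 0.061), 2 (0.17, 0.16) or 3 (0.18, 0.13), without DOX replicate 2 (0.21, 0.05) or 3 (0.15, 0.17), with library totals (0.16, 0.059) and with no filter on low counts (0.19, 0.057), over a range of 0.0039 to 0.17. Every one of these values was above 0.

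RELA stood at 161, 156 and 146 CPM with vehicle and 114, 134 and 132 CPM with DOX in HSC3, with DOX replicate 1 lowest (log2 fold change -0.29 ± 0.079, adjusted p 0.019). Without vehicle replicate 1 or 2 it was -0.252 (adjusted p 0.099) or -0.285 (0.073), over a range of 0.0028 to 0.099. TNFAIP2 went from the vehicle levels above to 61.8, 75.1 and 69.7 CPM (-0.27 ± 0.089, adjusted p 0.041). The call was lost without vehicle replicate 1 (-0.21, adjusted p 0.2), 2 (-0.30, 0.084) or 3 (-0.30, 0.083) and without DOX replicate 3 (-0.28, 0.095), over a range of 0.019 to 0.2. The direction of both genes was the same in each of these fits.

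NFKBIA stood at 133, 137 and 121 CPM with vehicle and 111, 120 and 115 CPM with DOX in HSC3. The groups were separate but the gene did not pass (log2 fold change -0.18, 95% interval -0.333 to -0.0298, adjusted p 0.074), except in 1 fit over all 12 libraries (-0.18, adjusted p 0.039, range over its alternatives 0.039 to 0.27). REL, at 90.1, 85.6 and 93.2 CPM with vehicle and 95, 77.1 and 82.6 CPM with DOX, overlapped (-0.0837, -0.264 to 0.0965, adjusted p 0.52). Without DOX replicate 1 its log2 fold change was -0.17 and it passed (adjusted p 0.034, range 0.034 to 0.9).

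RELB spread most between HSC3 DOX libraries, with 8.17, 14.2 and 11.2 CPM against 12.1, 14.8 and 12.5 CPM with vehicle. Its interval of -0.636 to 0.171 around -0.23 (adjusted p 0.41) includes the fall seen in CAL27. The value was -0.0451 without DOX replicate 1 (adjusted p 0.84) and -0.443 without DOX replicate 2 (0.077), over a range of 0.077 to 0.84 for its alternatives. NFKBIE had 104 to 227 counts in each HSC3 library and a log2 fold change of -0.15 with an interval of -0.739 to 0.434 (adjusted p 0.74), which includes both 0 and the fall seen in CAL27. NFKB1 (112, 110 and 107 CPM against 93.2, 106 and 110 CPM) gave -0.0925 (-0.259 to 0.0744, adjusted p 0.43). IKBKE (26.3, 27.2 and 24.1 CPM against 23.7, 28.8 and 28.7 CPM) gave 0.0625 (-0.167 to 0.292, adjusted p 0.72), an interval that does not reach the fall of 0.94 in CAL27.

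Per kb of the canonical transcript, NFKBIA led with DOX in HSC3 cells too (74 CPM per kb), whereas with all exons joined TNFAIP3 led there (37, against 34 for NFKBIA). TNFAIP3 (51.1) and RELA (50.4) overlapped after it, in place of the separate levels of the vehicle group, and NFKBIE (0.594) was again lowest.

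The response to DOX differed between the lines for 6 of the 10 genes. In a test of the interaction of line and DOX over the 12 libraries, the log2 fold change was higher in HSC3 than in CAL27 for NFKB2, REL, NFKBIA, TNFAIP3, TNFAIP2 and IKBKE, where 8.25% of all genes tested were higher. For 0 of 10 it was lower, where 12.3% were (0 also at an unadjusted p under 0.05 and by DESeq2). This test uses the same libraries as the comparisons within each line. With the genes chosen when earlier results were known, these shares too describe the 10 genes only.

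**Figure D3:**
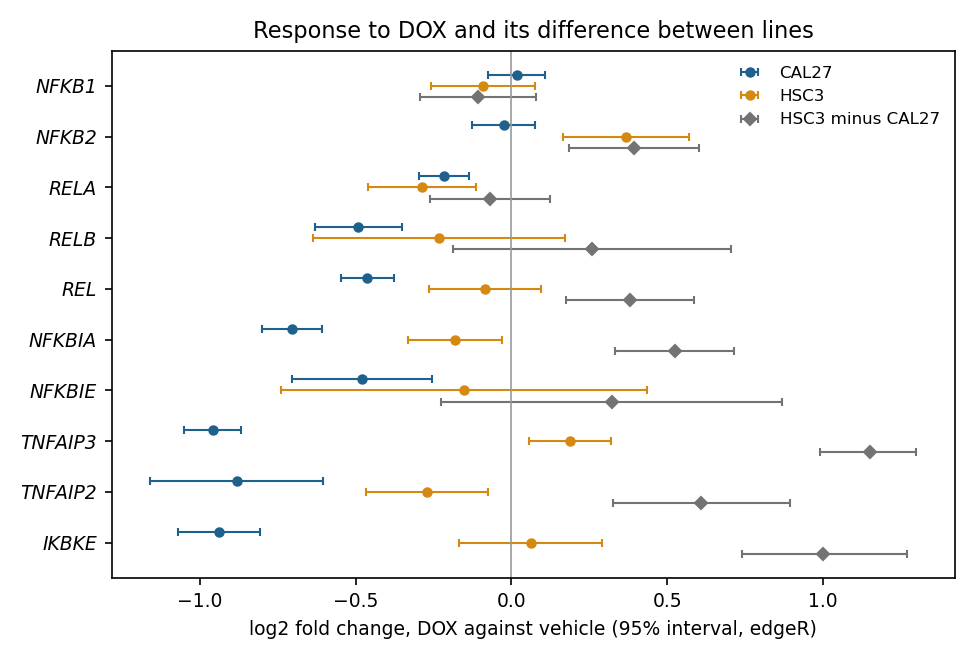
Log2 fold change with DOX in CAL27 (blue) and HSC3 (orange) cells and the difference of these responses, HSC3 minus CAL27 (grey diamonds), with 95% intervals from edgeR on 3 libraries a group. The difference lies furthest from 0 for TNFAIP3 (1.15) and IKBKE (1.00), and its interval includes 0 for NFKB1, RELA, RELB and NFKBIE.

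TNFAIP3 differed most, by 1.15 ± 0.073 on the log2 scale (edgeR adjusted p 7.5e-08), with a fall in CAL27. Its HSC3 value was 0.19 (adjusted p 0.038), a rise that did not pass in several alternatives given above. IKBKE differed by 1.00 ± 0.12 (adjusted p 3.5e-05), TNFAIP2 by 0.61 ± 0.13 (0.004) and NFKBIA by 0.52 ± 0.089 (0.00058). For the subunits NFKB2 and REL the differences were 0.39 ± 0.098 (adjusted p 0.0091) and 0.38 ± 0.096 (0.01). For each of these 6 genes the call for the difference between lines was kept under every alternative run, leaving out each library included.

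RELA fell in both lines, and the difference of its responses was -0.0689 (95% interval -0.262 to 0.124, adjusted p 0.68). For NFKB1 it was -0.108 (-0.295 to 0.0787, 0.45) and for NFKBIE 0.322 (-0.225 to 0.869, 0.44). For RELB it was 0.26 (-0.189 to 0.706, adjusted p 0.45) and depended on HSC3 DOX replicate 1, without which it was 0.47 (adjusted p 0.022, range over its alternatives 0.022 to 0.9).

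Count ratios of 2 genes within a library do not depend on the normalization. The log2 ratio of TNFAIP3 to NFKBIA was -0.427 to -0.386 in CAL27 vehicle and -0.753 to -0.559 in CAL27 DOX libraries, and 0.581 to 0.751 in HSC3 vehicle and 0.942 to 1.11 in HSC3 DOX libraries. The ratio moved down in CAL27 and up in HSC3, with no overlap in either line. That of NFKB2 to NFKB1 was -1 to -0.92 and -1.08 to -0.951 in CAL27, and -2.22 to -2.11 and -1.81 to -1.63 in HSC3, so the NFKB2 share of these transcripts was higher in every HSC3 DOX library than in any HSC3 vehicle library. Other pairs were computed too. RELB to RELA (-3.74 to -3.4 and -3.8 to -3.25) and NFKBIE to NFKBIA (-6.76 to -6 and -6.59 to -6.25) overlapped between the HSC3 groups. In CAL27 the first was lower and the second higher with DOX, without overlap. IKBKE to RELA was lower with DOX in CAL27 (-3.1 to -2.98 and -3.83 to -3.72) and higher in HSC3 (-2.62 to -2.52 and -2.27 to -2.2). No share over all gene pairs was computed.

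Around these 10 genes, 112 other genes of the pathway were listed in 7 groups. The lists were chosen with earlier results of these data known, so their counts are no test of the pathway. In CAL27 cells 103 of them were tested, of which 54 were lower and 21 higher with DOX at an edgeR adjusted p under 0.05 (median log2 fold change -0.22), against 21.8% and 22.6% of all genes. In HSC3 cells 18 of 106 were lower and 9 higher (median -0.03), against 15.4% and 13%. Between the lines the response was higher in HSC3 for 26 of 108 and lower for 12, against 8.25% and 12.3% of all genes. The same shares of all genes apply to the counts of each group below.

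Of 14 receptors, 8 were lower and 3 higher in CAL27 (median -0.45), and 3 lower and 0 higher in HSC3 (median -0.07, 1 higher at an unadjusted p under 0.05 and 0 by DESeq2). The 3 that were lower in HSC3 were lower in CAL27 too. IL1RAP, the shared co-receptor of the interleukin-1 family, changed by -1.17 in CAL27 and -1.34 in HSC3 on the log2 scale, TLR2, a receptor for bacterial lipoproteins, by -0.80 and -1.20, and TLR3, a receptor for double-stranded RNA, by -1.23 and -0.64. TNFRSF12A, the receptor for TWEAK, rose by 0.92 in CAL27 and gave -0.0301 in HSC3 (adjusted p 0.91). TLR4, the receptor for lipopolysaccharide, and TNFRSF10B, a TRAIL receptor, rose by 0.42 and 0.16 in CAL27, and gave 0.98 (adjusted p 0.064) and -0.14 (0.14) in HSC3.

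Of the ligands, 5 of 8 tested were lower in CAL27 (median -0.81) and 4 of 9 in HSC3 (median -0.39). None was higher at an adjusted or an unadjusted p under 0.05 or by DESeq2 in either line. TNFSF10, the gene of TRAIL, went from 388 ± 22.4 to 58.9 ± 15.3 CPM in CAL27 (log2 fold change -2.73 ± 0.22, adjusted p 0.00062) and from 26.9 ± 1.72 to 9.43 ± 2.49 CPM in HSC3 (-1.52 ± 0.16, adjusted p 4.3e-05). IL1A and IL1B, which encode the interleukin-1 cytokines, fell by 0.76 and 0.48 in CAL27 and by 0.29 and 0.39 in HSC3 on the log2 scale. TNFSF15 fell by 0.95 in HSC3 and gave -0.0579 in CAL27 (adjusted p 0.56), and its responses differed (-0.89, adjusted p 0.00051).

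Of 28 IκB kinases and adaptors, 11 were lower and 8 higher in CAL27 (median -0.024), and 2 lower and 4 higher in HSC3 (median -0.021). Of all genes tested, 21.8% were lower and 22.6% higher in CAL27, and 15.4% and 13% in HSC3. BIRC3, the gene of cIAP2, a ubiquitin ligase at the TNF receptor and a known NF-κB target, moved in opposite directions. It went from 51.4 ± 3.11 to 25.5 ± 1.92 CPM in CAL27 (log2 fold change -1.01 ± 0.056, adjusted p 1.6e-11) and from 12.4 ± 1.51 to 23.7 ± 2.38 CPM in HSC3 (0.93 ± 0.12, adjusted p 0.00018), a difference of 1.95 (adjusted p 2.3e-07). MAP3K7, the gene of the kinase TAK1, fell by 0.37 in CAL27 and by 0.93 in HSC3. TAB3, a TAK1 partner, rose by 0.33 and 0.52, and TRAF6, an adaptor ubiquitin ligase, rose by 0.64 in HSC3 (adjusted p 7.3e-05) with -0.0339 in CAL27 (adjusted p 0.49). MALT1, the paracaspase, fell by 0.18 in CAL27 and 0.42 in HSC3.

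Others of this group passed in CAL27 cells alone by the test of each line. The kinase gene MAP3K8 (TPL2) fell by 1.02 and IRAK2, a kinase of the interleukin-1 receptor complex, by 0.59, with -0.37 (adjusted p 0.49) and -0.22 (0.14) in HSC3, and for neither did the difference between lines pass (adjusted p 0.24 and 0.095). CARD10, a scaffold of the MALT1 complex, rose by 0.48, and MAP3K14 (NIK), the kinase of the non-canonical pathway, by 0.33. In HSC3 they gave -0.13 and -0.21, and the responses differed by -0.60 (adjusted p 0.0065) and -0.54 (0.024).

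Of the genes of the IκB kinase complex, CHUK, the gene of IKKα, rose by 0.32 in CAL27 (adjusted p 1.5e-06). IKBKB, the gene of IKKβ, gave -0.13 (adjusted p 0.12) and IKBKG, the gene of NEMO, 0.064 (adjusted p 0.69). None of the 3 passed in HSC3, where they gave -0.0309, 0.12 and -0.18. These 3 and TBK1 were picked for naming after their values were seen. TBK1, the kinase most like IKBKE, rose by 0.14 in CAL27 (adjusted p 0.0059) and gave -0.0617 in HSC3.

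Of 4 other IκB family genes, 2 were lower and 1 higher in CAL27 (median -0.29), and 0 lower and 1 higher in HSC3 (median 0.027, 0 lower also at an unadjusted p under 0.05 and by DESeq2). NFKBIZ, the gene of the nuclear cofactor IκBζ, fell by 0.94 in CAL27 and gave 0.12 in HSC3 (adjusted p 0.47), a difference of 1.07 (adjusted p 3.6e-05). BCL3, a nuclear IκB protein, fell by 0.54 in CAL27 and gave -0.16 in HSC3 (adjusted p 0.48). NFKBIB, the gene of IκBβ, rose in both lines, by 0.23 and 0.51.

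Of 14 other brakes on the pathway, 7 were lower and 3 higher in CAL27 (median -0.099). In HSC3 1 was lower and 0 higher (median 0.069, 5 higher at an unadjusted p under 0.05 and 2 by DESeq2). ZC3H12A, the gene of the ribonuclease Regnase-1, which degrades inflammatory mRNAs, fell by 0.89 in CAL27 and gave 0.26 in HSC3, a difference of 1.16 (adjusted p 5.8e-06). IRAK3, an inhibitor of interleukin-1 and Toll-like receptor signalling, fell by 0.84 in CAL27 and gave -2.04 in HSC3 (adjusted p 0.054). OTULIN, which removes linear ubiquitin chains, fell by 0.14 in CAL27 and 0.58 in HSC3, a difference of -0.43 (adjusted p 0.00093). N4BP1, an inhibitor of NF-κB signalling, fell by 0.45 in CAL27 and gave -0.0441 in HSC3 (difference 0.41, adjusted p 0.00078). The 3 brakes that rose in CAL27 were COMMD1 by 0.26, RNF11 by 0.255 and the ubiquitin ligase gene ITCH by 0.23, with 0.29, 0.22 and 0.0178 in HSC3, none of which passed. Of the 3 genes of the linear ubiquitin ligase LUBAC, 2 were tested, and RBCK1 (HOIL-1) fell by 0.46 in CAL27 and 0.47 in HSC3 while SHARPIN gave 0.0261 and 0.18.

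Of the listed target genes, most of those tested were lower with DOX in CAL27 cells. There 20 of 33 were lower and 6 higher (median -0.62), where 21.8% and 22.6% of all genes tested were. In HSC3 7 of 35 were lower and 4 higher (median -0.049), near the 15.4% and 13% of all genes. The response was higher in HSC3 for 12 of 35 and lower for 3, where 8.25% and 12.3% of all genes were. The 12 include CCL2 and SAA2, with at most 20 and 25 counts in any HSC3 library. The κB motif stood in the promoter windows of 12 of the 26 listed targets with an entry (46.2%), against 11.8% of all genes. The list was made of genes picked as NF-κB targets, so this share is not independent of the choice. Its link to the response was not tested.

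**Figure D4:**
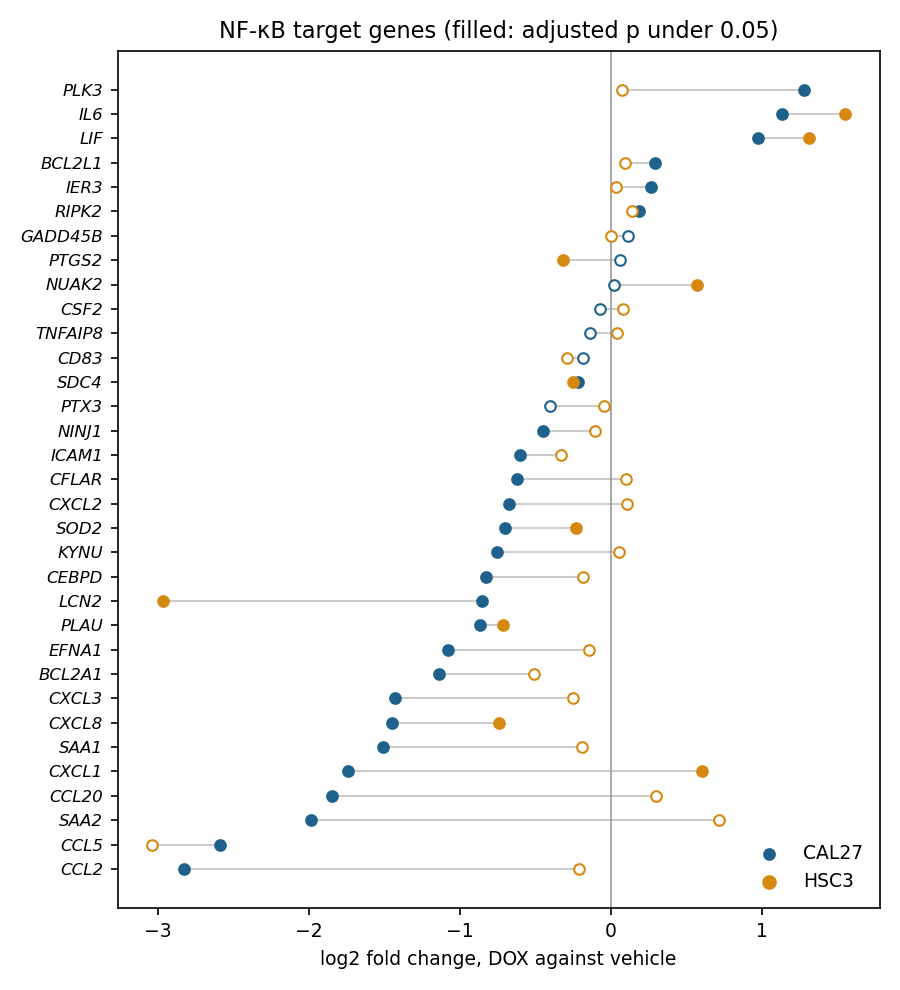
Log2 fold change with DOX of the 33 listed NF-κB target genes tested in both lines, CAL27 blue and HSC3 orange, joined by a line for each gene, with filled points for an edgeR adjusted p under 0.05. In CAL27 26 of the 33 are filled and in HSC3 10, and CXCL1 is filled on opposite sides of 0, at -1.74 and 0.60.

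CCL2, a monocyte chemokine, was the target that fell most in CAL27, from 230 ± 13.4 to 32.4 ± 7.42 CPM (log2 fold change -2.83 ± 0.18, adjusted p 0.00027). The acute phase gene SAA2, whose reads may be shared with its close copy SAA1, fell by 1.99 there and the chemokine gene CCL20 by 1.85. CCL5 fell by more than these 2 in CAL27, by 2.59 (edgeR adjusted p 2.6e-07). Its average log2 CPM there, -0.627, lay under the limit of 1 used for naming genes. In HSC3 SAA2 and CCL20 gave 0.71 (adjusted p 0.63) and 0.30 (0.45). CCL2 (0.0867 CPM with vehicle and 0.0746 with DOX) and SAA2 (0.102 and 0.167) were barely detected in HSC3. CXCL1, a neutrophil chemokine gene, went from 31.3 ± 2.46 to 9.43 ± 1.81 CPM in CAL27 and from 66.9 ± 2.47 to 102 ± 8.51 CPM in HSC3, and the responses differed by 2.34 (adjusted p 8.5e-08). Of the passing targets in HSC3, MMP9 fell most, from 2.58 ± 0.0891 to 0.0958 ± 0.0965 CPM (log2 fold change -4.72 ± 0.68, adjusted p 0.00039). MMP9 was not tested in CAL27. It is given here although its average log2 CPM, 0.283, lay under the limit of 1 used for naming genes. The passing targets with the next largest falls in HSC3, LCN2, CXCL8 and PLAU, fell in CAL27 as well. LCN2, which encodes lipocalin-2, fell by 2.97 in HSC3 and 0.86 in CAL27 (difference -2.11, adjusted p 5.9e-05), CXCL8 by 0.75 and 1.45 (difference 0.71, adjusted p 0.018), and PLAU, the gene of urokinase, by 0.72 and 0.87 (difference 0.15, adjusted p 0.17).

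Some targets rose. IL6 rose by 1.13 in CAL27 and 1.55 in HSC3 and LIF, another cytokine of its family, by 0.97 and 1.31. PLK3, a stress-responsive kinase gene, rose by 1.28 in CAL27 and gave 0.0727 in HSC3 (adjusted p 0.80), a difference of -1.21 (adjusted p 0.00063).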

How the data were processed

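Polyadenylated RNA of 12 libraries (4 groups of 3) was made into TruSeq Stranded mRNA libraries. The authors deposited whole-number counts per gene symbol, not normalized, in 1 table for each line. The submitters' processing notes name FastQC 0.11.9, STAR 2.7.9a, Subread 2.0.1 and featureCounts with GRCh38, and the annotation and strand setting are not given in the sources used here. The CAL27 DOX columns are numbered 4 to 6, and were mapped to their group only. Each line was fitted with edgeR 4.0.16 in R 4.3.3 (TMM, filterByExpr with minimums of 10 counts and 15 in total, robust quasi-likelihood test, two-sided), as were the 6 vehicle libraries and, for the interaction, all 12. Adjusted p-values (Benjamini-Hochberg) cover all genes tested, and genes passed under 0.05. Values ± are SE for fold changes and SD for levels, and intervals are 95%. Levels are CPM on a TMM scale over the 12 libraries. Replicates were compared, and no pair agreed within sampling noise. The fits were tested on simulated data with the same spread for every gene and library. Of log2 changes of 0.5, 69% were recovered in CAL27, 56% in HSC3, 63% between vehicle groups and 22% for the interaction. Of those of 1.5, 100% were recovered in each comparison. A change near 0.5 can thus be missed, above all in the interaction. DESeq2 1.42.0, other scalings, filters and single libraries left out were alternatives. Counts per molecule were estimated from genes with an expected count of 8 to 16 that had none. The members and lists were chosen with earlier results of these data known. Of each list, up to 3 passing genes in each direction and line with the largest change were named, where the mean log2 CPM reached 1 and the groups did not overlap.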

Additional observations from a re-analysis of the deposited data

Results flagged for a closer look

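For 6 of the 10 genes the response to DOX differed between the lines in a test of the difference itself (the edgeR interaction of line and DOX, HSC3 minus CAL27, log2 scale), and these are the results to look at again. TNFAIP3 differed by 1.15 (adjusted p 7.5e-08), from -0.96 in CAL27 to 0.19 in HSC3, where the rise did not pass in several alternatives. IKBKE differed by 1.00 (adjusted p 3.5e-05), with the DOX libraries below all vehicle libraries in CAL27 and overlapping them in HSC3. TNFAIP2 differed by 0.61 (adjusted p 0.004) and NFKBIA by 0.524 (adjusted p 0.00058), both with a smaller negative value in HSC3. The 2 subunit genes were NFKB2, with 0.394 (adjusted p 0.0091), and REL, with 0.381 (adjusted p 0.01). MUC1 itself differed by 1.36 (adjusted p 0.001). Its log2 fold changes were -4.21 (CAL27) and -2.88 (HSC3), and its vehicle level was 31.7-fold lower in HSC3. MUC1 had only 16 to 46 counts in the HSC3 DOX libraries, so its HSC3 response and this difference rest on few molecules. Its part in the 6 differences was not tested.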

How the results depend on the processing

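Over 540 refits of single genes, 510 kept their direction and side of the threshold, 18 lost a call, 6 gained one and 6 reversed. The counts of members passing stayed at 8 lower and 0 higher in CAL27 with each library left out in turn, at 6 to 7 for the difference between lines and at 7 between vehicle groups. In HSC3 they ran from 0 to 2 higher and from 0 to 3 lower. In HSC3 the count of higher genes was 1 with library totals, 1 with no filter on low counts and 1 with the replicate block, and the count of lower genes was 1 with the block. Requiring a fold change above 2 left 0 lower in CAL27 and 0 higher and 0 lower in HSC3. The values that reversed were NFKB1 in CAL27 (-0.0144 without vehicle replicate 2, -0.00439 without DOX column 5, up to 0.0514 with others left out), NFKBIE in HSC3 (0.0339 without vehicle replicate 3, down to -0.278), the RELA difference in response (0.0239 without HSC3 DOX replicate 1, down to -0.115), RELA between vehicle groups (0.0113 without HSC3 vehicle replicate 3, down to -0.06 with other libraries left out) and NFKBIA between vehicle groups (-0.0455 with library totals). None of these reversed values passed. The cause was not tested, except that leaving out a library leaves fewer samples.

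In HSC3 no pairing of the libraries by replicate number was seen. Same-numbered libraries correlated at -0.2, 0.35 and -0.35 in their deviations from the group means, and libraries of unlike number at -0.44 to 0.48. So few values cannot show that the libraries were not paired. With the replicate block TNFAIP3 (0.187, adjusted p 0.072) and TNFAIP2 (-0.275, adjusted p 0.078) no longer passed. No paired analysis was possible in CAL27 because its DOX columns carry no replicate number of their own. Dividing counts by the counts per molecule changed no call of the 10 genes.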

Other observations

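RELA and TNFAIP2 fell in CAL27 and in HSC3 cells, and the genes most like them were looked up over the 12 libraries after centring each line on its own mean, among 8597 genes. The Pearson correlation of log2 CPM with RELA was 0.99 for LHPP, 0.987 for ISYNA1 and 0.983 for APEH. With TNFAIP2 it was 0.984 for PCK2, 0.98 for NFKBIA and 0.979 for IRAK2, so a second member was among the 3 genes most like TNFAIP2. The libraries share lines, treatments and depth, and these values describe likeness only.

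Between the vehicle groups, 54 of 108 listed pathway genes were higher and 37 lower in HSC3 at an edgeR adjusted p under 0.05, against 34.7% and 37.1% of all genes tested. Of the 28 IκB kinases and adaptors 17 were higher and 9 lower, and all 4 other IκB family genes were lower (3 of 4 by DESeq2), with a median log2 difference of -0.45.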
